A study of Homo sapiens with 6 samples.

Results

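The Hedgehog pathway and GLI genes were examined in Rh30 cells, an established FP-RMS cell line that carries the PAX3-FOXO1 fusion, after treatment with a drug, a small molecule that blocks protein interactions of ETS transcription factors. The group held 9 genes chosen by name for their place in the pathway, namely the transcription factors GLI1, GLI2 and GLI3, the receptor PTCH1, the signal transducer SMO, the GLI inhibitor SUFU, the decoy receptor HHIP and the co-receptors BOC and CDON. All 9 were found among the 35268 named genes of the table. RNA-seq had been performed on polyA RNA from 3 libraries of cells given 1 µM of the drug and 3 libraries of cells given the vehicle, DMSO, each for 24 hours, with no other treatment and a single cell line. The labels do not say whether the 3 libraries of a group came from separate cultures, so that p-values measure the spread between these libraries, which may be technical.

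Hedgehog ligands bind PTCH1 on the receiving cell, which releases SMO from inhibition at the primary cilium. Active SMO frees the GLI proteins from SUFU and from processing into repressors, and GLI then activates its target genes. GLI1, PTCH1 and HHIP are themselves GLI target genes in most Hedgehog-responsive tissues, and are widely read as a measure of pathway output. In the embryo the pathway acts on early muscle progenitors, and GLI1 lies in a part of chromosome 12 that is known to be amplified in Rh30.

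The libraries held between 16724650 and 24677433 reads on named genes, and the 9 genes had at least 525 reads in each library. The values are normalized counts, that is, reads per gene divided by a factor of the library. DMSO replicate 1 stood apart, with a mean correlation across genes of 0.989 with the other libraries (the other 5 had 0.992 or more). The muscle lineage markers MYOD1 and MYOG had means of 36993 and 14926 normalized counts over the 6 libraries. MYF6, a marker of later muscle, had at most 1.26 in a library. The summed markers of other cell types were low. Those of endothelial cells lay between 238 and 318 normalized counts with DMSO and between 221 and 252 with the drug, those of leukocytes between 3.78 and 13.99 and between 16.0 and 24.0, and those of epithelial cells between 56.8 and 78.2 and between 77.2 and 107. Each sum came mostly from 1 gene, TEK for endothelial cells, CD14 for leukocytes and EPCAM for epithelial cells. TEK had a log2 fold change of -0.38, while the other 3 of the 4 endothelial markers tested were above 0. The part of these markers in the results was not tested. With limma on log2(normalized count + 1), 475 of 13930 genes (those averaging 10 or more) had a Benjamini-Hochberg adjusted p-value under 0.05, the threshold used throughout. This was 3.41% of the genes tested, with 2.15% lower and 1.26% higher after the drug.

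The PTCH1 promoter is shown because it holds the letters that GLI proteins are known to recognize. The letters GACCACCCA, or TGGGTGGTC on the other strand, were searched in the 250 bases before each start in the RefSeq promoter windows of GRCh38.p14, of which 15 belonged to 7 of the 9 genes. GLI1 and GLI3 had no entry. Of these 15 windows 1 held the letters, a PTCH1 window that lies directly before the start of the transcript PTCH1-201 at base 95509266 of chromosome 9 and overlaps no annotated exon. Of all 35116 windows, 0.199% held them. The sequence runs 5′ to 3′ on the minus strand of chr9:95509267-95509516 (hg38), with the GLI letters, at bases 95509430 to 95509438, in capitals.
PTCH1: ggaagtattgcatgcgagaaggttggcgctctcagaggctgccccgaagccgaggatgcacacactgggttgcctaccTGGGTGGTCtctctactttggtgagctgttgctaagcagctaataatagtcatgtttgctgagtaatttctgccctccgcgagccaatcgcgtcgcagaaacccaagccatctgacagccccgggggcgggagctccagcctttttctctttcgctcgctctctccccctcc
The ETS consensus CCGGAAGT, or ACTTCCGG on the other strand, was in none of the 15 windows and in 3.42% of all windows. These matches describe letters within short windows, and binding was not measured here.

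Levels of the 9 genes were compared with each other per length, as RPKM, the reads of a gene scaled to its length in annotated exons and to the reads of the library on named genes. GLI1 was the highest of the 9 genes in DMSO-treated cells, at 91.8 ± 9.22 (SD, n = 3), a level above that of 97.9% of the genes tested. HHIP and SMO followed at 25.9 ± 1.92 and 24.8 ± 2.17 (SD, n = 3 each), and their ranges over the DMSO libraries overlapped. SUFU and GLI2, at 12.2 ± 0.989 and 11.4 ± 0.674 (SD, n = 3 each), also overlapped each other. PTCH1 had 9.41 ± 0.211, CDON 7.39 ± 0.488, GLI3 6.66 ± 0.116 and BOC 3.19 ± 0.216 (SD, n = 3 each), and the neighbors in this part of the order did not overlap. The order of the lower genes depended on the length used, and with the length of the longest transcript CDON, at 16.1, stood above PTCH1 at 15.3 and GLI2 at 12.3. GLI1, HHIP and SMO remained the highest, at 105, 31.1 and 29.5.

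**Figure D1:**
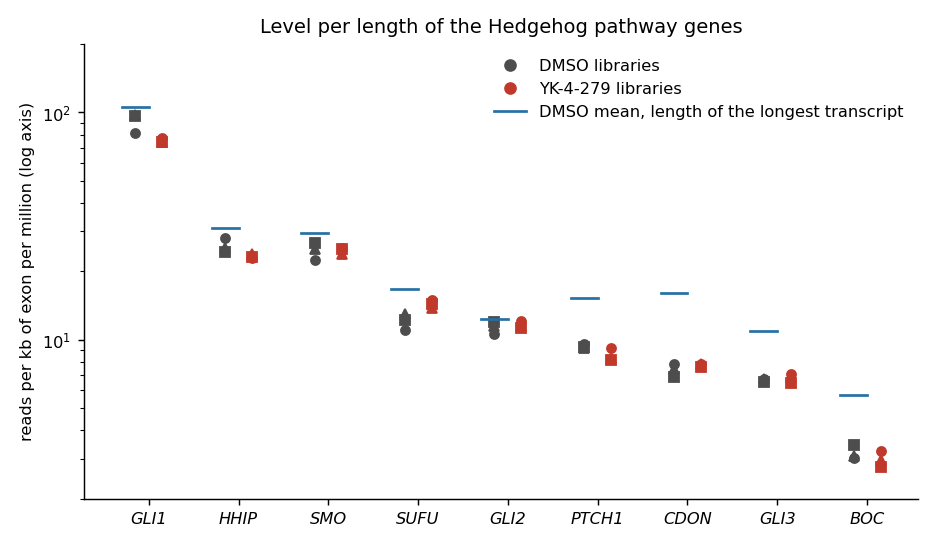
Level per length of the 9 genes, in RPKM (log axis), with each point 1 library (circles, squares and triangles are replicates 1, 2 and 3, DMSO in grey and the drug in red) and blue lines the DMSO mean with the length of the longest transcript. GLI1, at 91.8 in DMSO, stood above the other 8 genes in each library, and BOC, at 3.19, below them.

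Among the GLI factors, GLI1, which acts as an activator and is induced by the pathway, fell with the drug. GLI1 (ENSG00000111087) lies on chromosome 12 from 57459785 to 57472268 of hg38 on the plus strand. It had 7799.9, 9175 and 9133 normalized counts in the DMSO replicates, in the order of their numbers, and 6980.1, 6885 and 6753 in the drug replicates. Each drug library was below each DMSO library, and DMSO replicate 1 was the DMSO library nearest to them. The mean fell by 21.0%, from 8703 ± 782 to 6873 ± 114 (SD, n = 3 each). On the log2 scale this was -0.34 ± 0.07 (standard error) with a limma adjusted p of 0.0153. GLI1 was the only one of the 9 genes past the threshold, 1 of 9 or 11.1% beside the 3.41% of all genes tested. The call depended on single libraries. Without DMSO replicate 1 the log2 fold change of GLI1 was -0.41 (limma adjusted p = 2.05e-11), in a fit that called 13.1% of all genes tested, and without DMSO replicate 2 it was -0.30 (limma adjusted p = 0.0285). Without DMSO replicate 3 or drug replicate 1, 2 or 3 it lay between -0.35 and -0.30 and did not pass (limma adjusted p = 0.0683, 0.113, 0.108 and 0.109), in fits that called 242, 19, 25 and 46 genes of all those tested. It was also lost with a variance prior without trend (limma adjusted p = 0.148).

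GLI2 and GLI3, the factors that receive the signal from SMO first, with GLI3 known mainly as a repressor, did not pass the threshold. GLI2 (chromosome 2, 120735623 to 120992653, plus strand) had 1732, 1916 and 1839 normalized counts with DMSO and 1856, 1772 and 1769 with the drug. GLI3 (chromosome 7, 41960949 to 42264100, minus strand) had 1958, 1869 and 1911 with DMSO and 1951, 1810.4 and 1879 with the drug. The groups overlapped for both genes, with log2 fold changes of -0.02 (95% confidence interval -0.16 to 0.11, limma adjusted p = 0.883) and -0.03 (95% confidence interval -0.16 to 0.11, limma adjusted p = 0.862). Both were above 0 with quantile normalization, at 0.02 each.

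GLI1 made up most of the level per length of the 3 GLI factors together. Its share was 82.4%, 84.0% and 84.2% with DMSO, and 80.0%, 80.7% and 80.2% in the drug replicates. The groups did not overlap, and the share was 3.19 percentage points lower on average with the drug (difference -3.19, two-sided exact permutation test p = 0.1, the smallest that 3 against 3 libraries allow, so that the test could not reach 0.05). The share uses the same GLI1 values as the test above and is no separate evidence. A share within a library does not depend on the factor by which the library was scaled. With the length of the longest transcript the shares of GLI1 were between 80.5% and 82.6% with DMSO and between 78.1% and 78.9% with the drug.

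**Figure D2:**
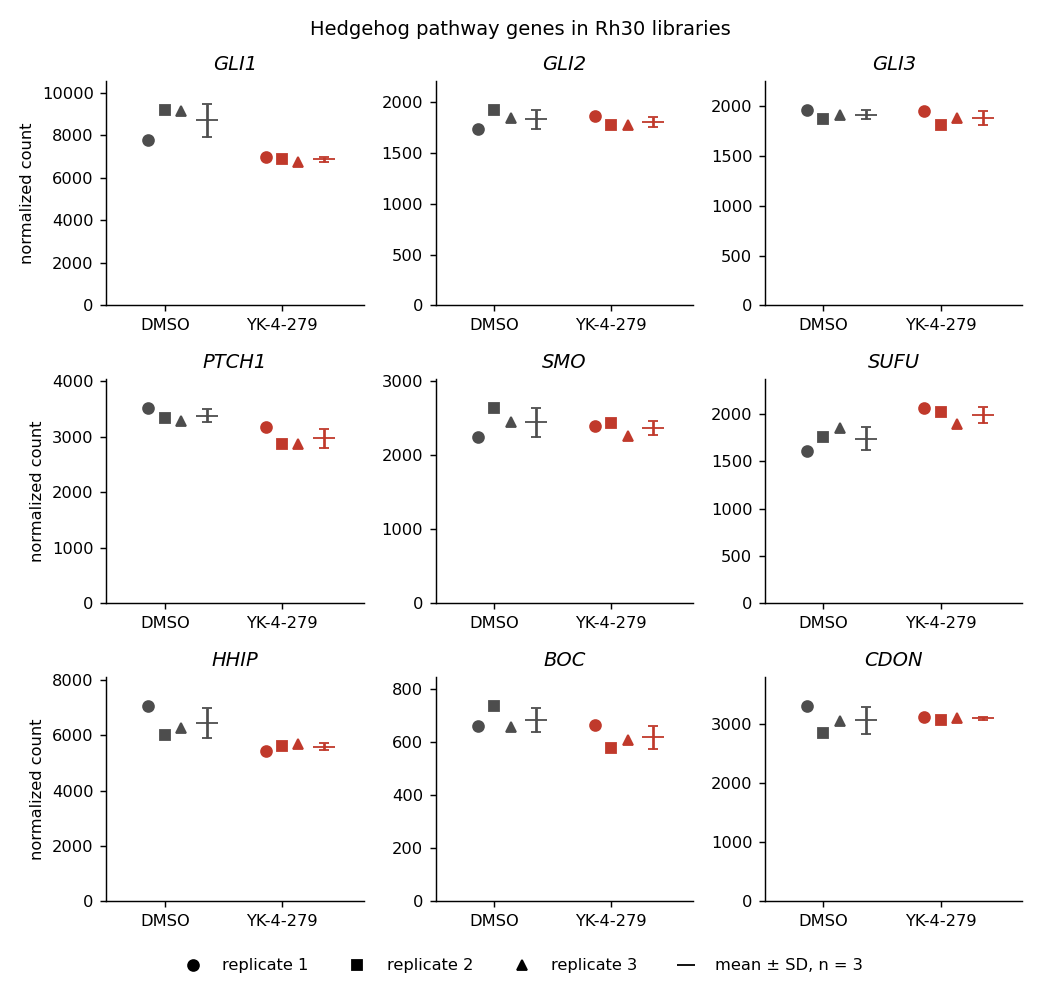
Normalized counts of the 9 genes in each library, with each point 1 library (circles, squares and triangles are replicates 1, 2 and 3) and bars the mean and SD of the 3 libraries beside them. The drug libraries lie below the DMSO libraries for GLI1 (at most 6980.1 against at least 7799.9), PTCH1 and HHIP, above them for SUFU, and overlap them for the other 5 genes.

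PTCH1 and HHIP, the receptor that holds SMO inactive and the surface protein that binds and sequesters the ligand, are the other GLI target genes of the group. PTCH1 (chromosome 9, 95442980 to 95517057, minus strand) had 3514, 3347 and 3289.7 normalized counts with DMSO and 3170.45, 2879 and 2870.45 with the drug. HHIP (chromosome 4, 144646156 to 144745271, plus strand) had 7051, 6009 and 6263 with DMSO and 5447, 5628 and 5681 with the drug. For both genes each drug library was below each DMSO library, but neither passed the threshold. PTCH1 had a log2 fold change of -0.19 (limma adjusted p = 0.117), with -0.32 and -0.06 as its 95% confidence limits, and HHIP one of -0.20 (limma adjusted p = 0.104), with limits of -0.34 and -0.06. Without DMSO replicate 1, the values were -0.16 and -0.14, smaller in size, and both passed (limma adjusted p = 0.00999 and 0.0163) in the fit that called 13.1% of all genes. HHIP also passed without DMSO replicate 2, at -0.25 (limma adjusted p = 0.0458). Exons of HHIP share 813 bases with those of HHIP-AS1 on the opposite strand, which had 594 to 663 normalized counts with DMSO and 548 to 583 with the drug, and, although a directional library kit was used, the strand setting of the counting is not given in the sources used here.

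SUFU, which binds GLI proteins and keeps them out of the nucleus, was the single member of the group with higher values in each drug library. SUFU (chromosome 10, 102503972 to 102633535, plus strand) had 1610.2, 1753 and 1852 normalized counts with DMSO and 2057, 2017 and 1888 with the drug. The lowest drug library, replicate 3, was close to the highest DMSO library, also replicate 3. The log2 fold change of 0.19 (95% confidence interval 0.05 to 0.34) did not pass the threshold (limma adjusted p = 0.147). Without DMSO replicate 1 it was smaller, at 0.14, and passed (limma adjusted p = 0.0441) in the fit that called 13.1% of all genes. In all, the groups did not overlap for 4 of the 9 genes, 3 lower and 1 higher, where this was the case for 26.0% of all genes tested (15.1% lower and 10.9% higher). An unadjusted limma p under 0.05 was found for 4 of the 9, beside 18.7% of all genes tested.

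SMO, the receptor-like protein through which the signal enters the cell, had 2249, 2638 and 2459 normalized counts with DMSO and 2404, 2436 and 2262 with the drug (chromosome 7, 129188633 to 129213545, plus strand). The groups overlapped, with a log2 fold change of -0.05 (95% confidence interval -0.19 to 0.10, limma adjusted p = 0.760). BOC and CDON are co-receptors for the ligand that are also known to promote myogenic differentiation. BOC (chromosome 3, 113211003 to 113287459, plus strand) had 662, 736 and 657 normalized counts with DMSO and 667, 579 and 610.3 with the drug, a log2 fold change of -0.15 (95% confidence interval -0.33 to 0.03, limma adjusted p = 0.364). CDON (chromosome 11, 125955796 to 126063335, minus strand) had 3298, 2844 and 3049 with DMSO and 3115, 3072 and 3096 with the drug, a log2 fold change of 0.02 (95% confidence interval -0.12 to 0.15, limma adjusted p = 0.919). For both genes the groups overlapped. CDON was the member of the group with the closest agreement between drug libraries, with an SD of 21.4 against 228 with DMSO. Exons of BOC share 530 bases with CFAP44 and those of CDON share 2831 bases with VSIG10L2, both on the opposite strand, at means of 124 and 4.24 normalized counts. Of the 6 muscle markers tested 3 were above 0 and 3 below, with a median log2 fold change of 0.05, and none passed in limma (2 had an unadjusted p under 0.05, MYOG and DES, both higher). The 3 above 0, MYOG, DES and CHRNG at 0.23, 0.14 and 0.11, were higher in each drug library, as were 10.9% of all genes tested. For the 3 below 0, MYOD1, CHRNA1 and CDH15 at -0.01, -0.02 and -0.03, the groups overlapped. The part of the muscle markers in the values of BOC and CDON was not tested.

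**Figure D3:**
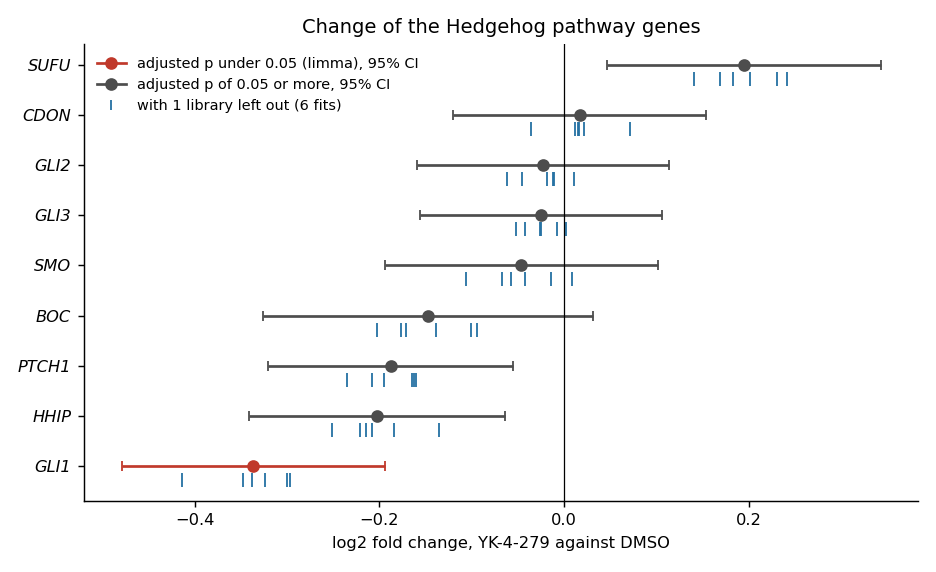
Log2 fold change of each gene between the drug and DMSO, with points from limma on all 6 libraries, bars their 95% confidence intervals and blue ticks the 6 fits that each left out 1 library. GLI1, in red at -0.34, was the only gene past the threshold, and the ticks lie on both sides of 0 for GLI2, GLI3, SMO and CDON.

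The protein-coding genes on either side of GLI1 moved in the opposite direction to it. INHBE, which encodes an inhibin beta subunit, ends before GLI1 starts (57452323 to 57459280 on the plus strand). It had 595, 683 and 705 normalized counts with DMSO and 937, 939.95 and 863 with the drug, so that the groups were far apart. It rose by 0.47 ± 0.08 (standard error) on the log2 scale, limma adjusted p = 0.0102. ARHGAP9 lies after GLI1 on the minus strand (57472264 to 57488814) and shares 5 exon bases with it. It had 169, 168 and 179 normalized counts with DMSO and 235, 237 and 241 with the drug, again with no overlap. Here too the log2 scale rise was 0.47 (standard error 0.10), limma adjusted p = 0.0262. Per length, INHBE was at 10.4 ± 1.03 and ARHGAP9 at 1.61 ± 0.0705 with DMSO (SD, n = 3 each), well under the 91.8 of GLI1. The call of INHBE was lost without any of the drug replicates 1, 2 or 3 (limma adjusted p = 0.102, 0.0929 and 0.0550), and that of ARHGAP9 without these (limma adjusted p = 0.137, 0.125 and 0.136) or without DMSO replicate 3 (limma adjusted p = 0.0608). A variance prior without trend also ended both calls (limma adjusted p = 0.103 and 0.0676).

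**Figure D4:**
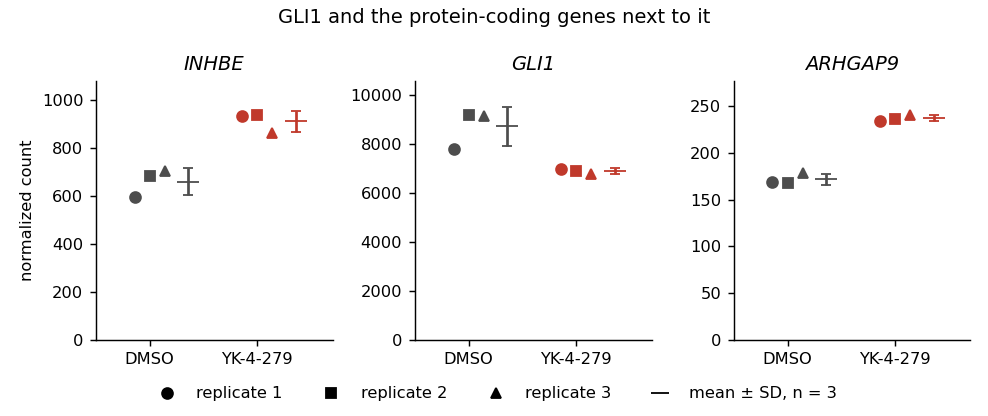
Normalized counts of GLI1 and of the protein-coding genes before and after it on chromosome 12, with each point 1 library (circles, squares and triangles are replicates 1, 2 and 3) and bars the mean and SD of 3 libraries. GLI1 was lower with the drug, at a log2 fold change of -0.34, and INHBE and ARHGAP9 were higher, at 0.47 each.

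The genes whose pattern over the 6 libraries was closest to that of GLI1 were UHRF1, HASPIN and NXPH4. The root mean square differences from GLI1 in log2(normalized count + 1), each gene centered on its own mean, were 0.031, 0.035 and 0.035, the smallest among 10698 genes averaging 100 or more. Since these genes were picked for values like those of GLI1, the direction and size of their differences follow from the choice and are a description. UHRF1, a factor that maintains DNA methylation at replication, had a log2 fold change of -0.33, HASPIN, a histone H3 kinase of mitosis, -0.35, and NXPH4, a neurexophilin gene, -0.30. For PTCH1 the closest genes were FKBP9, ZFP36L2 and FREM2, with differences of 0.015, 0.020 and 0.021 and log2 fold changes of -0.19, -0.15 and -0.20. In each library all genes share 1 depth and 1 scaling factor.

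The other genes of the pathway were taken from 6 lists by function, with 102 genes, of which 95 were tested. IGF2 was the only one past the threshold, 1 of 95 or 1.05% beside the 3.41% of all genes tested. In each list the gene with the most normalized counts, a choice that takes no account of length, is named. The median log2 fold change over the 95 genes was -0.03, beside -0.01 over all genes. Without DMSO replicate 1, 17 of the 95 passed, 2 higher and 15 lower, in a fit that called 13.1% of all genes tested.

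The ligands themselves were at or near 0. SHH had 0 reads in each of the 6 libraries, where a count of 0 allows up to 3 reads in a library, IHH had 1.00 to 7.51 normalized counts and DHH 3.34 to 11.0. Of the 9 genes for ligands and their release, 5 were tested, with a median log2 fold change of 0.20, and none passed in limma (2 had an unadjusted p under 0.05). SCUBE1, a secreted protein of the family that carries the ligand, had 1503, 1669.7 and 1695 normalized counts with DMSO and 1456, 1367 and 1324 with the drug. These groups did not overlap, and the log2 fold change of -0.23 had a limma adjusted p of 0.0902 with all libraries and 4.58e-05 without DMSO replicate 1.

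Of 6 other surface proteins 5 were tested, with a median log2 fold change of -0.07, and none passed in limma (2 had an unadjusted p under 0.05). GAS1, a further co-receptor, had an RPKM of 177.9 ± 26.3 with DMSO (SD, n = 3), above GLI1, with a log2 fold change of 0.03 (95% confidence interval -0.15 to 0.21). The 12 genes that act at or next to SMO were all tested, with a median of -0.03, and none passed in limma (4 had an unadjusted p under 0.05). ARRB1, an arrestin, had a log2 fold change of -0.03. The 25 genes of GLI processing had a median of -0.04, and none passed in limma (2 had an unadjusted p under 0.05), and PRKAR1A, a regulatory subunit of protein kinase A, had a log2 fold change of -0.14 (limma adjusted p = 0.265). The 28 genes of the cilium and its transport had a median of -0.05, and again none passed in limma (3 had an unadjusted p under 0.05), and KIF3B, a subunit of the motor that carries cargo into the cilium, was at 0.15 (limma adjusted p = 0.210). KIF3B passed without DMSO replicate 1, at 0.18 (limma adjusted p = 0.00945). Over all genes tested, 18.7% had an unadjusted p under 0.05.

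The list of genes used as GLI targets in other tissues had 23 members, of which 21 were tested, with a median log2 fold change of -0.01. IGF2, a growth factor gene with a known role in rhabdomyosarcoma, fell. It had 18756, 17840 and 17093 normalized counts with DMSO and 13037, 13108 and 11988 with the drug, with no overlap between the groups. On the log2 scale the difference was -0.49 ± 0.06 (standard error; limma adjusted p = 0.00118), and the call held in each of the 6 fits that left out 1 library, with values from -0.53 to -0.45, but not with a variance prior without trend (limma adjusted p = 0.0764). For 7 of the 21 genes the groups did not overlap, beside 26.0% of all genes. Those that were lower, named after their values were seen, were IGF2, JAG2, FOXM1, CCND1 and GREM1, at -0.49, -0.29, -0.20, -0.16 and -0.15, and those that were higher were OSR2 and SNAI1, at 0.32 and 0.11. Apart from IGF2 none passed the threshold. In limma 7 of the 21 had an unadjusted p under 0.05, beside 18.7% of all genes tested.

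**Figure D5:**
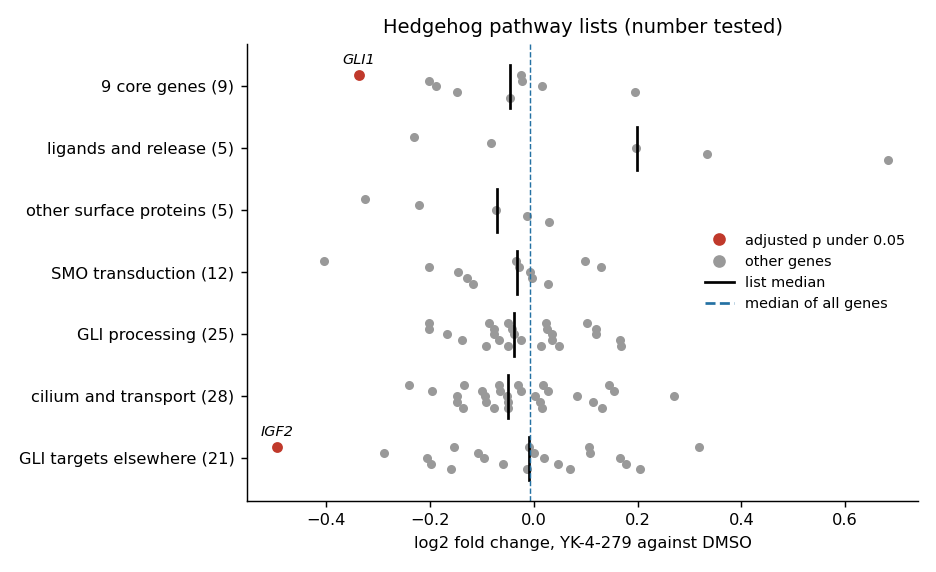
Log2 fold changes of the genes tested in each pathway list, with each point 1 gene (spread vertically only to separate points), red points past the threshold, black bars the list medians and the dashed line the median of all genes at -0.01. GLI1 and IGF2 were the only genes past the threshold, at -0.34 and -0.49.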

How the data were processed

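Gene expression was measured by polyA RNA-seq in 6 libraries of Rh30 cells. Trimming by the authors was with BBDuk, and STAR 2.7.9a gave both the alignment (hg38) and the count of each gene. The deposited values are a normalized signal, namely counts divided by a factor of each library (DESeq2 1.44.0 is named in the submitters' processing notes). In each library 100% of the values were whole multiples of the smallest value above 0, within 0.01. Of 35269 rows, 1 without a gene name, with at most 6 reads per library, was left out. The test was limma 3.58.1 under R 4.3.3 (eBayes with trend, two-sided, Benjamini-Hochberg adjustment over 13930 genes with a mean of at least 10) on log2(normalized count + 1), which understates changes of low genes. The code was tested on simulated data.

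The members, lists and alternatives were chosen with earlier results of these data known. Genes named were the 9 members, in each list the highest mean and up to 3 of the largest called changes, the protein-coding neighbors of GLI1, and the 3 genes closest in pattern to GLI1 and to PTCH1. Other names were added after their values were seen. Positions and lengths were from GENCODE v44 (hg38), and promoter windows from RefSeq. The list of genes at SMO held a second name of MOSMO, counted once. The replicate numbers did not pair the libraries, with correlations of same-numbered deviations of -0.0985, -0.0269 and -0.0267. The planned edgeR and DESeq2 alternatives were not run. A pathway gene is not reported here.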

Additional observations from a re-analysis of the deposited data

How the results depend on the processing

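The log2 fold change of GLI1 kept its direction in every alternative run, from -0.42 after removal of the trend on GC content and length in each library (below, the composition correction) to -0.29 with quantile normalization. The 9 core genes past the threshold numbered 1, and 0 with eBayes without trend, 4 (all lower: GLI1, PTCH1, HHIP and BOC) with the composition correction, and from 0 to 4 when 1 library was dropped. The other pathway genes past it numbered 1, and 0 with eBayes without trend, 16 with the composition correction, and from 1 to 17 when 1 library was dropped. Over all genes the number was 475, and 277 with quantile normalization, 33 with eBayes without trend and from 19 to 1827 when 1 library was dropped, the highest without DMSO replicate 1. With the composition correction it was 1900 of 13602 genes tested (97.6% of genes had these values), of which 1425 were lower. With a replicate block it was 180, with 1 core gene and 1 other pathway gene, and the block lost the call of ARHGAP9 (limma adjusted p = 0.0725). The share of higher calls, 37.1%, was 47.7% with quantile normalization, 25.0% with the composition correction and 90.9% with eBayes without trend. The edgeR and DESeq2 alternatives were not run. The deposited values are normalized, and although they gave whole reads in all 6 libraries, the factors of 2 libraries lie so near 1 that this recovery could not be checked there as in the other 4. Apart from fewer libraries, the causes were not tested.

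Small differences turned direction. With quantile normalization GLI2 was 0.021, GLI3 0.020, SMO 5.3e-04 and ARRB1 0.011, and with the composition correction CDON was -0.0100 and GAS1 -0.057. When 1 library was dropped GLI2 went from -0.061 to 0.011, GLI3 from -0.052 to 0.0018, SMO from -0.11 to 0.0087, CDON from -0.036 to 0.071, and ARRB1 from -0.093 to 0.0096 and GAS1 from -0.087 to 0.11. With the length of the longest transcript the levels in DMSO were 105 for GLI1, 31.1 for HHIP, 29.5 for SMO, 16.7 for SUFU, 16.1 for CDON, 15.3 for PTCH1, 12.3 for GLI2, 10.9 for GLI3 and 5.73 for BOC. Counting error alone was between 1.27% and 4.36% of the lowest library's value for the 9 core genes.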
